A study of Rattus norvegicus with 5 samples.

Results

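Solute carriers are the membrane proteins that move amino acids, ions, sugars, carboxylates, nucleosides, metals and other small molecules across the plasma membrane and the membranes of organelles. The genes described here are the solute carriers on a rat expression array outside glutamate uptake and glucose entry. They were chosen by name: every probe set of the array annotated with a single symbol that begins with Slc and a digit, or with Slco, was a member. Left out were Slc1a1, Slc1a2, Slc1a3, Slc2a1, Slc2a3, Slc4a4 and Slc16a8. This gave 171 of the 8799 probe sets, which stand for 119 of the 4736 genes named by a single symbol. The rule uses no measured value, although the group of genes was proposed with earlier results of these data known. One further glutamate carrier, Slc1a6, is a member under this rule but was at the lowest value assigned on all arrays. The 2 probe sets that list a carrier among several symbols were not members.

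Total RNA of Müller cells, the main glial cells of the retina, was measured on 5 arrays. The cells came from male Sprague-Dawley rats and were prepared from retinas pooled over 12 animals. Normal arrays 1 to 3 held cells of healthy rats, with arrays 2 and 3 labelled biological replicates. Diabetic arrays 1 and 2 held cells of rats that had been made diabetic with streptozotocin, which kills the insulin-secreting cells of the pancreas, and had lived with diabetes for 6 months on low insulin doses meant to limit wasting. Diabetic array 2 is labelled a technical replicate, so both diabetic arrays were counted as 1 pool. The comparison asks which carriers differ in Müller cells after long diabetes, and it rests on 3 normal pools and 1 diabetic pool of animals. Neither the age of the rats nor the method of isolating the cells is given in the labels.

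Müller cells span the whole retina and handle the traffic of substrates between neurons, vitreous and blood vessels. They clear transmitters such as GABA and glycine, supply neurons with lactate and glutamine, take up taurine as an osmolyte, and pass ions, bicarbonate and acid between compartments. Most carriers are secondary transporters driven by the sodium gradient of the Na,K-ATPase, by protons, or by exchange of one substrate for another. Some need a partner protein: Slc7a5 and its close relatives pair with the heavy chains Slc3a1 or Slc3a2, while the CAT carriers Slc7a1 and Slc7a3 do not, and lactate carriers of the Slc16 family pair with basigin or embigin.

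The deposited signals were brought to a common distribution and set to at least 20, the floor, so that dim values have no order. All signals below are on this normalised linear scale, and differences are diabetic minus normal on its log2 scale. Median deposited signals per array ran from 27.9 to 91.3. Actin signal from the 3 prime end exceeded that from the 5 prime end, which reflects how intact the RNA was, by factors of 2.61 (normal array 1), 2.56 (diabetic array 2) and 1.46 to 1.76 (the other arrays). Normal array 3 and diabetic array 2 shared a processing day and chip lot. Normal arrays 1 and 2 differed from these and from each other in day or lot. No day or lot was given for diabetic array 1. Of 12 Müller cell markers 10 were tested, with summed signals of 35980 to 48025 in normal and 41890 to 43008 in diabetic cells, and Glul and Slc1a3 were bright on every array, while the potassium channel Kcnj10 ran only from 31.2 to 78.7. Other cell types were represented too. The 8 tested of 17 photoreceptor markers summed to 4283 to 10085 in normal and 12756 to 13582 in diabetic cells, and all 8 lay higher. The 10 tested of 16 leukocyte markers summed to 1659 to 1995 in normal and 2293 to 2500 in diabetic cells. The 16 tested of 20 inner neuron markers gave 3365 to 4555 against 3901 to 4107, and the 5 tested of 14 vascular markers gave 2457 to 3348 against 2346 to 2862. The 4 tested of 12 red cell markers gave 776 to 1378 against 1119 to 1162, and 2 of 11 pigment epithelium markers gave 76 to 160 against 228 to 282. Their part in the carrier values was not tested. In RNA of whole preparations, fewer cells of a type and less RNA per cell cannot be told apart.

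No solute carrier passed the test for a difference between diabetic and normal cells. Of the 171 probe sets 121 passed the filter on dim signals, and 0 had an adjusted p under 0.05 in limma, where the share called among all tested probe sets was also 0% (0 of 6118). Each of the 90 tested carrier genes, counted by its brightest probe set, had an adjusted p of 0.9999 (limma). An unadjusted p under 0.05 was seen in 0 of 90 carriers (limma), against 1.32% of all 3623 tested genes. The lowest unadjusted p among these was 0.0783, for Slc3a1 (limma). The 95% interval of a difference reached a median of 1.18 to either side on the log2 scale, a factor of 2.26, so that smaller differences could not be told from the spread of the pools.

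Carriers as a whole lay close to normal. Of the 90 genes 48 were higher and 42 lower in the diabetic pool, with a median difference of 0.037 and quartiles of -0.19 and 0.28. Over all tested genes the median was -0.0080 and the quartiles were -0.22 and 0.22. The carrier median was -0.023 without normal array 2 and -0.026 without normal array 3. For 7 carriers every diabetic array was higher than every normal array (7.78%), where the same held for 9.83% of all genes. The reverse held for 9 carriers (10%), against 7.01% of all genes. With diabetic array 2 left out these counts were 20 and 19 of 90, and without diabetic array 1 they were 22 and 15 of 91, with shares over all genes of 21.8% and 22.9% or 24.7% and 18.2%. Without normal array 1 the counts were 18 and 20 of 90, without normal array 2 they were 13 and 16 of 90, and without normal array 3 they were 13 and 18 of 92. The shares over all genes were then 19% and 17.6%, 14.5% and 12.1%, or 16.5% and 14.4%. On the deposited, unscaled values the counts were 5 and 0 of 91, with shares over all genes of 8.42% and 0.166%. Carriers above normal without overlap were Slc22a7, Slc8a1, Slc25a30, Slc6a20a, Slc7a5, Slc5a1 and Slc3a2. Those below were Slc7a1, Slc3a1, Slc23a3, Slc25a4, Slc15a4, Slc15a2, Slc16a3, Slc20a2 and Slc7a3. For 83 of the 90 carriers the 3 normal arrays spanned more than the difference between the groups.

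**Figure D1:**
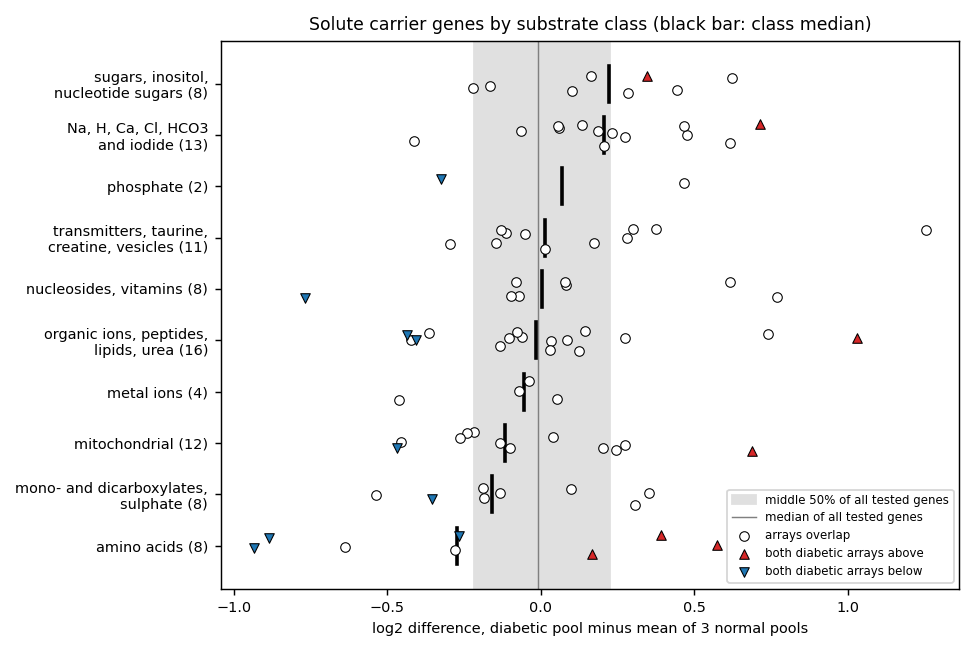
Log2 difference of each of the 90 tested carrier genes (x axis), diabetic pool minus mean of 3 normal pools, by substrate class (y axis, number of genes in brackets). Filled triangles mark the 7 genes with both diabetic arrays above and the 9 with both below all normal arrays; the grey band lies between the quartiles of all 3623 tested genes, -0.22 and 0.22, and most carriers lie in or near it.

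Amino acid carriers had 6 of their 8 tested genes without overlap of arrays, 3 above normal, against 9.83% of all genes, and 3 below, against 7.01%. The class has 12 genes on the array, its median was -0.27, and 3 genes were higher and 5 lower. Slc7a1 encodes the arginine and lysine carrier CAT-1. Its brightest probe set gave 42.0, 41.7 and 42.4 on normal arrays 1 to 3 and 21.7 and 22.2 on diabetic arrays 1 and 2. The 3 normal arrays were nearly equal and both diabetic arrays stood close to the floor, lower by a factor of 1.91. The difference was -0.93, SE 0.46 (95% interval -2.08 to 0.21, limma unadjusted p = 0.092). A second tested probe set of Slc7a1, U70476_at, gave 51.3, 48.9 and 37.9 on normal arrays 1 to 3 and 20.2 and 20 on diabetic arrays 1 and 2, again with no overlap, and a difference of -1.18, SE 0.49 (limma unadjusted p = 0.0549). Another probe set was too dim to be tested. For the brightest probe set, diabetic array 2 minus normal array 3, processed on the same day, was -0.93. The difference between the groups on the unscaled values of that probe set was -0.41, where the median of all genes was 0.48.

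The upstream sequence of Slc7a1 is shown because both of its tested probe sets lay lower, and that of Slc7a5 because its arrays lay on the other side, above normal. Each run holds the 250 bases before the annotated start, 5′ to 3′ on the gene's strand, from RefSeq (GRCr8): chr12:11664238-11664487 on the plus strand for Slc7a1 and chr19:66872413-66872662 on the minus strand for Slc7a5. Capitals mark TGATGNAA, the core of the element through which amino acid shortage is known to raise transcription by way of the factor Atf4.
Slc7a1: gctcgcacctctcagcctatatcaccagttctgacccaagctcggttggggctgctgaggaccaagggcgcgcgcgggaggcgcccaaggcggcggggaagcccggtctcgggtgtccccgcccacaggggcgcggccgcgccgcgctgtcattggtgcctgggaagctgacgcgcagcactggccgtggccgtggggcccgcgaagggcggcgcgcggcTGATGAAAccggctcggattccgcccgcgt
Slc7a5: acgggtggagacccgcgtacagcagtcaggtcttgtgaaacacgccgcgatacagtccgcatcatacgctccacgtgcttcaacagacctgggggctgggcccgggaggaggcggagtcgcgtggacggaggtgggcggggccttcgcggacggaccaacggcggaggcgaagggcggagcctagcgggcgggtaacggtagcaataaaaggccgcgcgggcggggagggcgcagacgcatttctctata
The motif was searched on both strands, and no other motif was searched. It occurs 1 time in the Slc7a1 window, starting 30 bases before the annotated start, and 0 times in that of Slc7a5. Of 33469 upstream windows of the same length 3.4% hold it. Among carriers it was found in 3 of 110 windows, which belong to 102 of the 119 genes, namely those of Slc7a1, Slc23a3 and Slco2a1. A match describes letters in a window and says nothing about binding in these cells.

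Slc3a1, the heavy chain that brings cystine and basic amino acid carriers to the membrane, had the lowest p among the brightest probe sets of the carriers. It gave 111, 158 and 135 on normal arrays 1 to 3 and 82.7 and 63.1 on diabetic arrays 1 and 2. Both diabetic arrays lay under the lowest normal array, with a difference of -0.89, SE 0.41 (95% interval -1.91 to 0.14, limma unadjusted p = 0.0783). Slc7a3, a second carrier of basic amino acids, gave 423, 372 and 389 in normal and 311 and 345 in diabetic cells. Its arrays did not overlap, but the difference was only -0.27, SE 0.26.

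The pair that forms the large neutral amino acid carrier LAT1 lay on the other side. Slc7a5, its transporting subunit, gave 427, 552 and 358 on normal arrays 1 to 3 and 583 and 567 on diabetic arrays 1 and 2. Normal array 2 came within a few percent of the diabetic arrays, and the difference was 0.39, SE 0.33 (95% interval -0.43 to 1.21). Slc3a2, its heavy chain, gave 778, 706 and 843 on normal arrays 1 to 3 and 864 and 871 on diabetic arrays 1 and 2. Those diabetic values are nearly identical and lie just above the highest normal array, with a difference of 0.17, SE 0.25. The second probe set of Slc3a2 overlapped between groups (0.24, SE 0.31). Slc6a20a, which carries proline and related imino acids, gave 48.9, 29.9 and 48.2 in normal and 71.8 and 52.8 in diabetic cells, a difference of 0.58, SE 0.54. The other tested members of the class, Slc6a15 and Slc6a7, overlapped, with differences of -0.64 and -0.28. The median of the class relative to that of all genes ran from -0.35 without diabetic array 2 to 0 without the filter on dim probe sets.

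**Figure D2:**
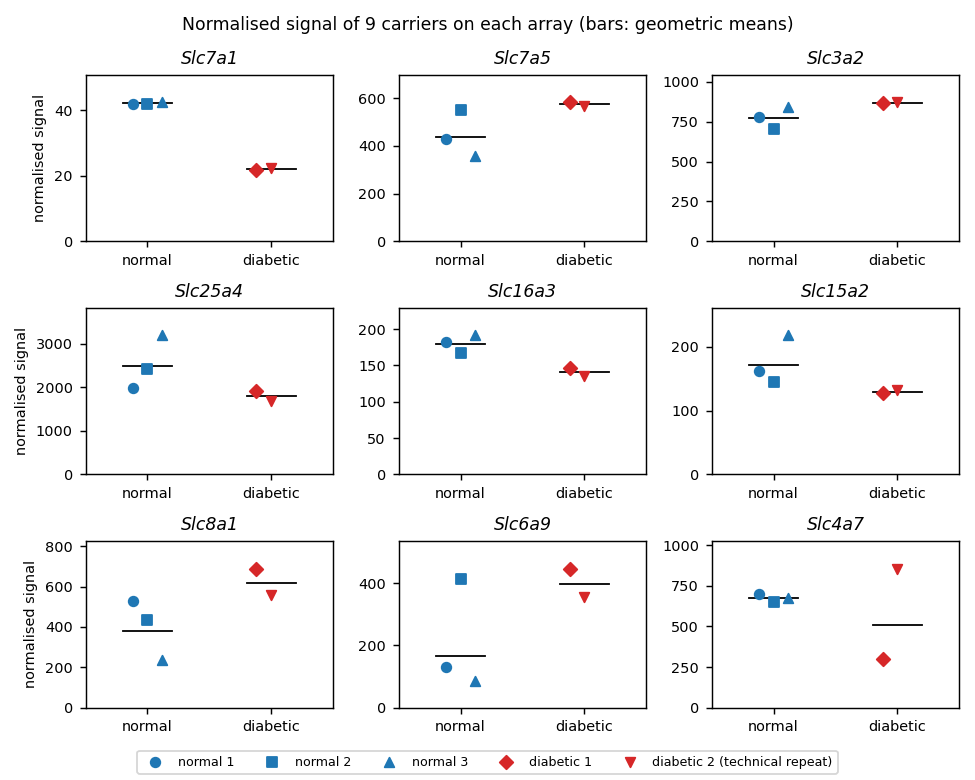
Normalised linear signal (y axis, from 0) of 9 carriers on each array, with normal arrays in blue and diabetic arrays in red; black bars are geometric means. Slc7a1 shows 3 near-equal normal values near 42 and diabetic values near 22, whereas the 2 diabetic arrays of Slc4a7 lie on opposite sides of the normal arrays.

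Among carriers of transmitters, taurine and creatine, 6 of 11 tested genes were higher and 5 lower, with a median of 0.014. Free of overlap were 0, against 9.83% of all genes above normal and 7.01% below. Slc6a9 encodes the glycine carrier GlyT1, which in retina is known from glycinergic amacrine cells and from Müller cells. Its difference of 1.25, SE 0.86 was the largest of all carriers (95% interval -0.90 to 3.41, limma unadjusted p = 0.201). It gave 129, 413 and 86.8 on normal arrays 1 to 3 and 446 and 354 on diabetic arrays 1 and 2. Normal array 2 was as high as the diabetic arrays, and normal arrays 1 and 3 were low. The difference was 0.75 without normal array 3 and 1.90 without normal array 2. Slc32a1, the vesicular carrier of GABA and glycine and a marker of inhibitory neurons, was also highest on normal array 2, with 52.1, 186 and 88.2 in normal and 106 and 143 in diabetic cells (difference 0.38, SE 0.75). The summed inner neuron markers were highest on that array as well, at 4555, and the part of such neurons in these values was not tested. Without normal array 1 Slc32a1 differed by -0.058.

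Slc6a6, the taurine carrier through which retinal cells hold this osmolyte, gave 714, 886 and 617 on normal arrays 1 to 3 and 935 and 867 on diabetic arrays 1 and 2. Diabetic array 2 lay just under normal array 2, and the difference was 0.30, SE 0.29 (95% interval -0.43 to 1.03). Slc6a11, encoding the GABA carrier GAT-3 of glia, gave 339, 262 and 209.8 in normal and 303 and 237 in diabetic cells. Its groups overlapped throughout and differed by 0.014, SE 0.37, with an interval of -0.90 to 0.93. The creatine carrier Slc6a8 gave 212, 146 and 226 in normal and 135 and 181 in diabetic cells (difference -0.29, SE 0.39). Slc18a2, which loads monoamines into vesicles, ranged from the floor to 100.1 over the normal arrays, and its difference of 0.17, SE 0.93 became -0.44 without normal array 3. Monoamine carriers of the cell membrane, Slc6a2, Slc6a3 and Slc6a4, differed by -0.13, -0.052 and -0.15. The second probe set of Slc6a4 differed by 0.47. The acetylcholine vesicle carrier Slc18a3 differed by -0.12 and the neuronal glycine carrier Slc6a5 by 0.28. The vesicular glutamate carrier Slc17a7, the GABA carrier Slc6a13 and the monoamine carrier Slc18a1 were at the floor on all 5 arrays.

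Exchangers and cotransporters of sodium, calcium, chloride, protons and bicarbonate were mostly higher, in 11 of 13 tested genes, against 49.2% of all genes. Their median was 0.21 on the brightest probe sets. With the mean of a gene's probe sets it was 0.080, and 10 of 13 were higher. The class median relative to all genes ran from 0.029 on the 3 arrays of low actin ratio to 0.32 without normal array 2. On those 3 arrays 7 of 13 genes were higher. The class median stayed above that of all genes under all 15 alternatives run, but these reuse the same arrays and are not independent. The same held for the sugar class, and the carboxylate and sulphate class stayed below, from -0.24 to -0.023. Leaving out the trend in limma and taking arrays as separate samples cannot change these medians, so those alternatives are no check of them. Slc8a1, the sodium-calcium exchanger NCX1 that extrudes calcium from many cells, had the largest difference of the class. It gave 529, 433 and 235 on normal arrays 1 to 3 and 689 and 557 on diabetic arrays 1 and 2. Diabetic array 2 was only slightly above normal array 1, and normal array 3 was the lowest by far. The difference was 0.71, SE 0.49 (95% interval -0.51 to 1.94, limma unadjusted p = 0.199), or 0.37 without normal array 3. Photoreceptor, red cell and pigment epithelium marker sums were also lowest on normal array 3, at 4283, 776 and 76. The Müller marker sum was highest there, at 48025, and the part of any cell type in this value was not tested. Other probe sets of Slc8a1 differed by 0.57, SE 0.87 and -0.50, SE 0.64, so they did not share a direction. Slc8a2, the exchanger NCX2 of neurons and glia, gave 176, 57.9 and 90.4 in normal and 198 and 112 in diabetic cells (difference 0.62, SE 0.67), and Slc8a3 differed by -0.064.

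Slc12a2, the cotransporter NKCC1 that loads cells with sodium, potassium and chloride, had 3 tested probe sets that disagreed. The brightest gave 343, 333 and 509 on normal arrays 1 to 3 and 679 and 428 on diabetic arrays 1 and 2, a difference of 0.48, SE 0.34. The other tested ones differed by -0.45, SE 0.45 and -0.33, SE 0.34, the same-day pair gave -0.25 on the brightest, and the mean over the gene's probe sets was -0.10. Slc12a5, the neuronal chloride extruder KCC2, gave 155, 472 and 478 in normal and 442 and 354 in diabetic cells. Only normal array 1 stood apart, at a low value, and without it the difference of 0.28, SE 0.70 became -0.27. The potassium-chloride cotransporters Slc12a4 and Slc12a7 differed by 0.059, SE 0.35 and 0.47, SE 0.99. Slc12a7 gave 40.6, 213 and 192 in normal and 158 and 169 in diabetic cells, so only normal array 1 lay below the diabetic arrays. The thiazide-sensitive carrier Slc12a3 differed by 0.23, SE 0.675. It gave 21.4 and 79.8 on diabetic arrays 1 and 2, and normal array 3 was at the floor.

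Of the bicarbonate carriers, the chloride exchangers Slc4a2 and Slc4a3 gave 236, 168 and 191 in normal and 241 and 193 in diabetic cells and 186, 211 and 166 in normal and 194 and 194 in diabetic cells. Their differences were 0.14, SE 0.35 and 0.055, SE 0.33. Slc4a7, the sodium-bicarbonate cotransporter NBCn1, gave 702, 652 and 674 on normal arrays 1 to 3 and 301 and 857 on diabetic arrays 1 and 2. Normal arrays agreed within a factor of 1.08, but the 2 diabetic arrays, which are labelled as repeats, differed by a factor of 2.85 and lay on opposite sides of normal. The pooled difference of -0.41, SE 0.24 was -1.18 with array 1 alone and 0.35 with array 2 alone. Slc4a1, the anion exchanger of red cells, differed by 0.18, and the calcium exchanger Slc24a2 of cones and neurons by 0.21.

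Carriers of lactate, other carboxylates and sulphate had 3 of 8 tested genes higher and 5 lower, with a median of -0.16. Without overlap was 1 gene, below normal (12.5%, against 7.01% of all genes). Slc16a3 encodes MCT4, which exports lactate from cells with high glycolysis. It gave 182, 166 and 191 on normal arrays 1 to 3 and 146 and 135 on diabetic arrays 1 and 2. Both diabetic arrays lay below the lowest normal array, by a difference of -0.35, SE 0.33 (95% interval -1.17 to 0.46, limma unadjusted p = 0.324). Slc16a1, encoding the widespread lactate carrier MCT1, gave 884, 1005 and 1183 on normal arrays 1 to 3 and 999.8 and 799 on diabetic arrays 1 and 2. Its groups overlapped, with a difference of -0.19, SE 0.27, and the second probe set differed by -0.33, SE 0.40. Slc16a7, encoding the high-affinity carrier MCT2, was near or at the floor, with 31.2, 20 and 20 in normal and 24.2 and 34.0 in diabetic cells (difference 0.31, SE 0.52). The partner Bsg, basigin, gave 2152, 2281 and 2395 in normal and 1821 and 2159 in diabetic cells (difference -0.20, SE 0.23). Slc26a1, a sulphate exchanger, had the highest and Slc13a2, a sodium-coupled dicarboxylate carrier, the lowest difference of the class, 0.35, SE 0.73 and -0.54, SE 0.48. Slc13a2 differed by a factor of 2.14 between the diabetic arrays.

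All 12 mitochondrial carriers on the array were tested, and 5 were higher and 7 lower, with a median of -0.12. Slc25a4 and Slc25a5 encode the adenine nucleotide translocases ANT1 and ANT2, which exchange ADP for ATP across the inner mitochondrial membrane. Slc25a4 gave 1978, 2413 and 3186 on normal arrays 1 to 3 and 1914 and 1676 on diabetic arrays 1 and 2. Both diabetic arrays lay under the lowest normal array, diabetic array 1 by a few percent, and the difference was -0.47, SE 0.33 (95% interval -1.28 to 0.35, limma unadjusted p = 0.205). It was -0.29 without normal array 3. Slc25a5 gave 666, 821 and 652 in normal and 662 and 661 in diabetic cells, with groups that overlapped (difference -0.10, SE 0.26). The 2 genes are close copies, and whether their probe sets tell them apart was not tested.

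Slc25a30, a carrier of the same family as the uncoupling proteins, had the largest difference of the mitochondrial class, with 31.5, 28.6 and 46.4 in normal and 51.1 and 61.1 in diabetic cells (difference 0.69, SE 0.53). Slc25a20, which brings acylcarnitines into mitochondria, gave 44.8, 87.6 and 89.5 in normal and 53.3 and 64.9 in diabetic cells (difference -0.26, SE 0.59). The phosphate carrier Slc25a3, the peroxisomal carrier Slc25a17 and the citrate carrier Slc25a1 differed by 0.041, 0.28 and -0.13. For the dicarboxylate carrier Slc25a10 the probe sets did not agree. AJ223355_at lay above normal without overlap, by 1.05, SE 0.56, rc_AA859666_i_at lay below without overlap, by -0.55, SE 0.46, and the brightest overlapped, at 0.20, SE 0.34.

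Nucleoside and vitamin carriers split evenly, with 4 of 8 tested genes higher and a median of 0.0035. Slc29a1 and Slc29a2 encode the equilibrative nucleoside carriers ENT1 and ENT2, which let adenosine pass in either direction. Slc29a1 gave 450.3, 327 and 239 on normal arrays 1 to 3 and 433 and 583 on diabetic arrays 1 and 2. Diabetic array 2 was above all normal arrays and diabetic array 1 was not, and the difference was 0.62, SE 0.41 (limma unadjusted p = 0.186). Slc29a2 gave 163, 136 and 20 in normal and 121 and 139 in diabetic cells. Its difference of 0.77, SE 1.23 rested on normal array 3, which was at the floor, and became -0.18 without that array. The concentrative carrier Slc28a2 was at the floor on diabetic array 1 and at 60.5 on diabetic array 2 (difference 0.082, SE 0.65), and the folate carrier Slc19a1 gave 210.3, 201 and 154 in normal and 174 and 182 in diabetic cells (difference -0.071, SE 0.35). Slc23a3, a relative of the ascorbate carriers, gave 145, 106 and 110.3 on normal arrays 1 to 3 and 61.3 and 80.1 on diabetic arrays 1 and 2. Its diabetic arrays lay below all normal ones, with a difference of -0.77, SE 0.42 (95% interval -1.81 to 0.28, limma unadjusted p = 0.12). The vitamin carrier Slc5a6 differed by -0.080 on its brightest probe set and by -1.31, SE 0.79 on AF081204_s_at, which was without overlap but near the floor in diabetic cells.

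**Figure D3:**
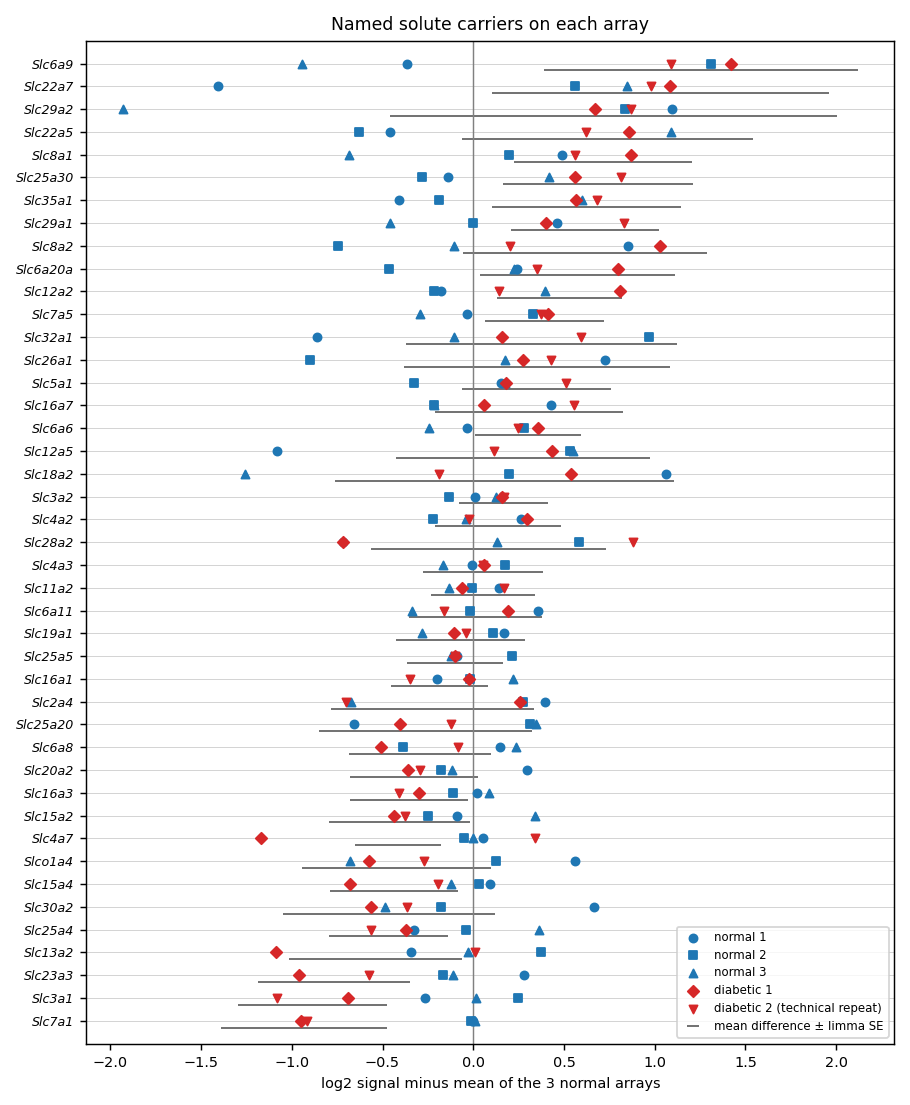
Log2 signal of each of the 43 named carriers on each array, minus the mean of the 3 normal arrays (x axis), one gene per line (y axis), with grey bars for the mean difference ± its limma SE. For Slc6a9, Slc29a2 and Slc18a2 the blue normal arrays span more than the difference between groups. In 15 of the named carriers, including Slc7a1 and Slc3a1, both red diabetic points lie to one side of all blue ones. Lack of overlap was itself a reason for naming these carriers, so their number among the 43 is no result. Of the 90 tested carriers 7.78% lay above and 10% below without overlap, against 9.83% and 7.01% of all genes.

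Organic ion, peptide, lipid and urea carriers formed the largest class, with 16 tested of 23 genes, 8 higher and 8 lower and a median of -0.016. Slc22a7, the organic anion carrier OAT2, gave 36.8, 144 and 176 on normal arrays 1 to 3 and 206 and 193 on diabetic arrays 1 and 2. Normal array 1 was far below the rest, and without it the difference of 1.03, SE 0.93 was 0.33. Slc22a5, which takes up carnitine, gave 32.1, 28.6 and 94.1 in normal and 80.1 and 68.0 in diabetic cells (difference 0.74, SE 0.80), with normal array 3 above both diabetic arrays and a value of -0.47 for diabetic array 2 minus normal array 3, the pair of the same day. Slc15a2 and Slc15a4 carry small peptides, and Slc15a2 has been described in Müller cells. Slc15a2 gave 162, 145 and 218 on normal arrays 1 to 3 and 127 and 133 on diabetic arrays 1 and 2, and Slc15a4 gave 161, 154 and 139 in normal and 94.2 and 132 in diabetic cells. In both the diabetic arrays lay below all normal arrays, with differences of -0.41, SE 0.39 and -0.44, SE 0.35. Slco1a4, an organic anion carrier of the blood-retinal barrier, gave 377, 279 and 159.7 in normal and 172 and 212 in diabetic cells. It overlapped between groups (difference -0.42, SE 0.52; 0.41 on the same-day pair), and Slc10a2, Slco1a1, Slco2a1 and Slc27a1 of the same class differed by 0.28, 0.14, -0.077 and -0.13. The urea carriers Slc14a1 and Slc14a2 differed by 0.033 and 0.030 on their brightest probe sets, and the second one of Slc14a1 by 0.53, SE 0.53.

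Sugar, inositol and nucleotide sugar carriers were higher in 6 of 8 tested genes, against 49.2% of all genes, with a median of 0.22. The class median relative to all genes ran from 0.067 without normal array 1 to 0.32 without diabetic array 2. Slc35a1, which brings CMP-sialic acid into the Golgi, gave 77.9, 90.8 and 156 in normal and 153 and 166 in diabetic cells (difference 0.62, SE 0.52), with normal array 3 among the diabetic values. Slc5a1, the sodium-glucose cotransporter SGLT1, gave 129, 92.3 and 131 in normal and 131 and 165 in diabetic cells. Diabetic array 1 exceeded normal array 3 by less than 1 unit, a marginal lack of overlap (difference 0.35, SE 0.41), and the second probe set differed by -0.20, SE 0.50. Slc2a4, the insulin-regulated glucose carrier GLUT4, gave 140.4, 129 and 66.9 in normal and 127 and 65.5 in diabetic cells on its brightest probe set (difference -0.22, SE 0.56). Its second probe set lay above normal, though diabetic array 1 exceeded normal array 1 by less than 1 unit, and differed by 0.80, SE 0.63. The inositol carrier Slc5a3, which cells use against osmotic stress, differed by 0.16, SE 0.50, and the fructose carrier Slc2a5 by 0.44, SE 0.90.

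Metal carriers were 1 higher and 3 lower of 4 tested genes, with a median of -0.054. Slc11a2, the iron carrier DMT1, gave 312, 281 and 257 in normal and 270.4 and 318 in diabetic cells, a difference of 0.054, SE 0.29, and 0.42, SE 0.61 on its second probe set. The zinc carrier Slc30a2 had the lowest difference, -0.46, SE 0.58, with 0.12 on the same-day pair, and the zinc exporter Slc30a1 and the iron exporter Slc40a1 were too dim to be tested. Slc40a1 was at the floor on all arrays. Of the phosphate carriers Slc20a2 gave 261, 188 and 196 in normal and 166 and 174 in diabetic cells. It lay below normal without overlap (difference -0.33, SE 0.35). Slc34a1 differed by 0.47, SE 0.53 on its brightest probe set, and the lowest of its 4 tested probe sets gave -0.066.

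The 2 diabetic arrays agreed on a direction for 60 of the 90 carriers, with 33 genes above the normal mean on both and 27 below it on both. For the remaining 30 they lay on opposite sides. Between the repeats 6 carriers (6.67%) differed more than 2-fold, against 8.61% of all genes, and these were Slc12a3, Slc28a2, Slc6a5, Slc4a7, Slc24a2 and Slc13a2. The median gap between the repeats was 0.29 on the log2 scale. Normal arrays 2 and 3 had a gap of 0.33, and normal array 1 had gaps of 0.45 and 0.47 to these. Over all tested genes the order was different, with 0.34 between the repeats and 0.29 between normal arrays 2 and 3. The gaps of normal array 1 were then 0.43 and 0.47. Between normal arrays 28 carriers (31.1%) spanned more than 2-fold, against 28.6% of all genes.

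**Figure D4:**
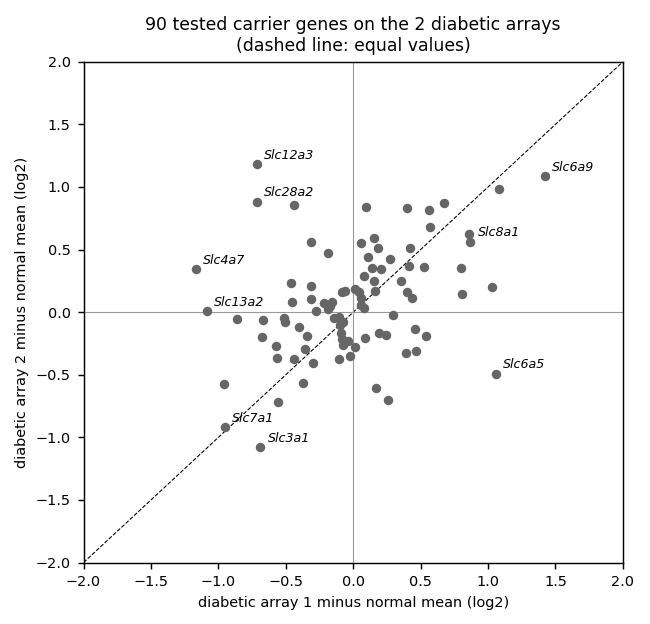
Deviation of each of the 90 tested carriers from the normal mean on diabetic array 1 (x axis) and diabetic array 2 (y axis), in log2 units, with a dashed line of equal values. Points in the upper left and lower right quadrants are the 30 genes on which the repeats disagree in direction, such as Slc4a7.

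Probe sets of 1 gene often differed as much. Of 25 carriers with more than 1 tested probe set, 11 had differences of opposite sign and 9 had a gap over 0.5 on the log2 scale. The largest gap, 1.60, was that of Slc25a10. Among the carriers without overlap on the brightest probe set, only Slc7a1 had a second tested probe set that was also free of overlap in the same direction. Second probe sets of Slc22a7, Slc8a1, Slc5a1 and Slc3a2 overlapped between groups, and the other carriers without overlap had 1 tested probe set.

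The 29 carrier genes that were too dim to be tested had a highest signal of 20 to 56.6 on any array. Of the 119 genes 15 were at the floor on all 5 arrays in their brightest probe set, and 82 were above it on all 5. Among those too dim were the proton exchangers Slc9a2, Slc9a3 and Slc9a4, the kidney glucose carrier Slc5a2, the liver glucose carrier Slc2a2, the bile acid carrier Slc10a1 and the basic amino acid carrier Slc7a2. Slco2b1 was the only one with both diabetic arrays above all normal arrays, at a highest signal of 23.8.

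Other transport genes, given for the setting in which carriers work, also had 0 adjusted calls in limma, and 0 had an unadjusted p under 0.05. Of 4 tested sodium pump genes all were higher, against 49.2% of all genes, with a median of 0.25. Fxyd1, a regulator of the pump, gave 1851, 1689 and 1779 in normal and 2121 and 2208 in diabetic cells (difference 0.29, SE 0.23). It was the only 1 of the 4 above normal without overlap (25%, against 9.83% of all genes). The pump's beta subunits Atp1b1, Atp1b2 and Atp1b3 overlapped and differed by 0.23, 0.010 and 0.26. Of 5 carbonic anhydrases 2 were higher and 3 lower, and 2 lay below normal without overlap (40%, against 7.01% of all genes). The first, Car2, is the cytosolic enzyme of Müller cells that feeds bicarbonate carriers. It gave 4548, 5157 and 6002 in normal and 3774 and 4479 in diabetic cells (difference -0.34, SE 0.27). The other, Car5a, gave 177, 116 and 115 in normal and 103 and 112 in diabetic cells (difference -0.30, SE 0.43). Of 8 ABC transporters 3 were higher and 5 lower. Only Abcc1, an exporter of glutathione conjugates, was without overlap, above normal (12.5%, against 9.83% of all genes). It gave 38.5, 20 and 65.7 in normal and 72.4 and 126 in diabetic cells (difference 1.37, SE 0.75).

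Of 22 partners and substrate enzymes 12 were higher and 10 lower, with a median of 0.0062, and 4 lay above normal without overlap against 9.83% of all genes. Stk39, the kinase SPAK that switches Slc12 cotransporters, gave 42.9, 42.8 and 246 in normal and 304 and 274 in diabetic cells. Its difference of 1.91, SE 1.08 came with normal array 3 at nearly the diabetic level, and diabetic array 2 exceeded normal array 3 of the same day by only 0.15. Odc1, which makes polyamines from arginine-derived ornithine, gave 271, 236 and 130.4 in normal and 329 and 302 in diabetic cells (difference 0.64, SE 0.48). Ldhb, a subunit of lactate dehydrogenase, gave 443, 286 and 296 in normal and 505 and 485 in diabetic cells (difference 0.56, SE 0.35), and Emb, a partner of lactate carriers, differed by 0.088. The remaining 18 overlapped, creatine kinase Ckb among them at 0.010.

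**Figure D5:**
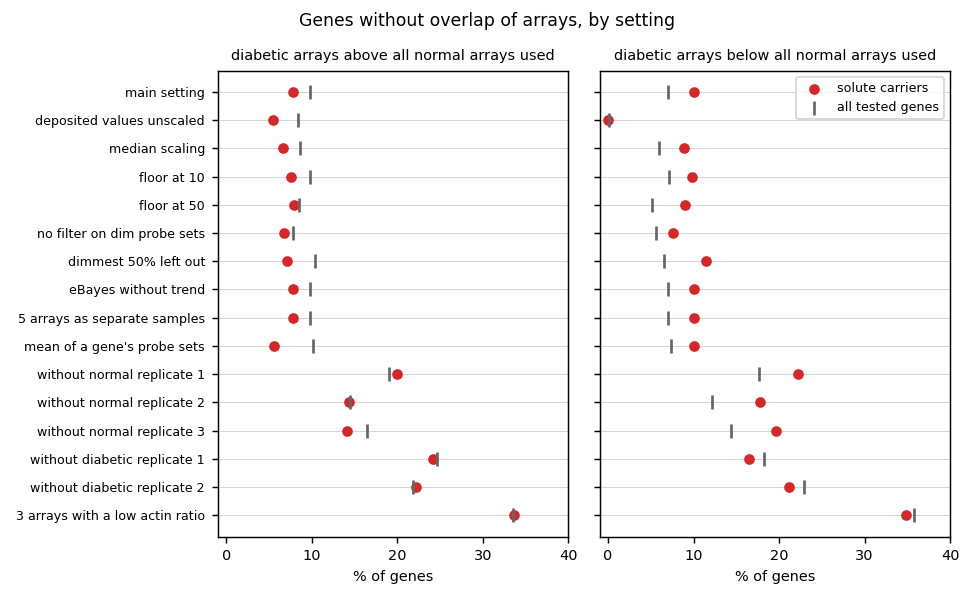
Share of genes (x axis, percent) whose diabetic arrays lay above (left) or below (right) all normal arrays used, for solute carriers (red points) and all tested genes (grey bars), under the main setting and 15 alternatives (y axis). Leaving out 1 array raises both shares, to as much as 24.2% for carriers above normal, against 24.7% of all genes. Below normal, carriers exceed all genes by the most without normal array 2, at 17.8% against 12.1%. They lie under all genes without diabetic array 2, at 21.1% against 22.9%.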

How the data were processed

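The authors deposited 1 linear intensity for each probe set and array of a rat chip, per the file headers. How probe cells were summarised and scaled is not given in the labels or headers. As 2% trimmed means differed by a factor of 3.52, the arrays were quantile normalised and floored at 20, and log2 values were taken. Tests left out 59 control probe sets and the 30% dimmest by mean over the groups, which kept 6118 of 8740. A difference understates the change of dim genes. Symbols came from the platform annotation, and the 171 member probe sets matched RefSeq (GRCr8) by Entrez ID. The brightest tested probe set stood for each gene. Probe sets with the suffix _s_at can match more than 1 transcript.

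The diabetic arrays were averaged, and their pool was set against the 3 normal ones with limma 3.58.1 in R 4.3.3 (lmFit, eBayes with trend, Benjamini-Hochberg over all tested probe sets, two-sided, threshold 0.05), with 2 residual and 3.54 prior degrees of freedom. The diabetic pool was assumed to vary like the normal ones. The limma step was tested on simulated data. Members, classes and lists were chosen with earlier results of these data known. Named carriers were those with an unadjusted p under 0.05 (none), up to 8 without overlap in each direction with the largest differences, a list of carriers reported whatever their values, and the extremes of each class of at least 4 tested genes. Slc7a3, the remaining one without overlap below normal, and other carriers given mainly by their difference were added after their values were seen. Deposited experiment records gave the processing day and chip lot of every array except diabetic array 1. Figures were drawn with matplotlib 3.10.9.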

Additional observations from a re-analysis of the deposited data

How the results depend on the processing

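No solute carrier passed an adjusted p of 0.05 (limma) under the main setting or with another scaling, a floor of 10, the dimmest 50% left out, arrays taken as separate samples, or only the arrays of low actin ratio. With a floor of 50 there were 7 carrier probe sets, among 147 called of 6118, and without the filter 2, among 170 of 8740. All 9 had their 3 normal arrays at the floor and hence no spread there. At an unadjusted p under 0.05 (limma) there were 6 of 89 carrier genes with a floor of 50 (4.99% of all genes), 4 of 119 without the filter (4.03%), 1 of 90 without the trend (1.32%), 2 of 90 with separate arrays (3.7%), 7 of 92 on the low actin arrays (8%), and 0 to 3 when 1 array was left out (0.828% to 4.13%). Carriers wholly above normal numbered 31 on the low actin arrays (33.7%, against 33.5% of all genes) and 13 to 22 with 1 array left out. Those wholly below numbered 32 (34.8% against 35.8%) and 15 to 20, and 0 on unscaled values.

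On unscaled values the median of all genes moved to 0.48, 91.4% of genes and 93.4% of carriers were higher, and the carrier median was 0.48. It was 0.10 on diabetic array 2 against normal array 3, which shared a day, and -0.026 to 0.071 with 1 array left out. Unscaled values turned carriers below normal to 0.45 for Slc19a1, 0.41 for Slc25a5, 0.33 for Slc16a1, 0.36 for Slc2a4, 0.22 for Slc25a20, 0.22 for Slc6a8, 0.20 for Slc20a2, 0.17 for Slc16a3, 0.11 for Slc15a2, 0.11 for Slc4a7, 0.14 for Slco1a4, 0.085 for Slc15a4, 0.10 for Slc30a2 and 0.059 for Slc25a4, all under that shift. The direction also turned to -0.14 for Slc18a2 with a floor of 50, and to -0.10 for Slc12a2 and 0.29 for Slc2a4 with the mean of the probe sets. On the low actin arrays it turned to -0.29 for Slc32a1, -0.10 for Slc12a5, -1.08 for Slc28a2 and 0.48 for Slc2a4. Without each array in turn 28 of the 43 named carriers kept their direction. The others ran from -0.18 to 1.38 for Slc29a2, -0.058 to 0.86 for Slc32a1, -0.10 to 0.73 for Slc26a1, -0.27 to 0.54 for Slc12a5, -0.44 to 0.76 for Slc18a2, -0.024 to 0.30 for Slc4a2, -0.65 to 0.87 for Slc28a2, -0.028 to 0.14 for Slc4a3, -0.062 to 0.17 for Slc11a2, -0.16 to 0.20 for Slc6a11, -0.20 to 0.017 for Slc19a1, -0.17 to 0.0044 for Slc25a5, -0.70 to 0.26 for Slc2a4, -1.18 to 0.35 for Slc4a7 and -1.10 to 0.011 for Slc13a2. On diabetic array 2 against normal array 3 alone, 9 of the 43 had the opposite direction, -0.47 for Slc22a5, -0.25 for Slc12a2, -0.43 for Slc12a5, 0.24 for Slc19a1, 0.018 for Slc25a5, 0.35 for Slc4a7, 0.41 for Slco1a4, 0.12 for Slc30a2 and 0.037 for Slc13a2. The cause was not tested. Slc7a1 and Slc16a7 gave no value with a floor of 50.

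No paired analysis was possible because the labels share only the number 2 between the groups and the diabetic arrays are 1 pool. Values near the floor, such as those of Slc7a1 in diabetic cells, limit the size of a difference that can be read.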
